A study of Mus musculus with 12 samples.

Results

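The comparison set peritoneal macrophages of Pim1-/- mice against peritoneal macrophages of wild-type (WT) mice, both treated for 8 h with oxidized low-density lipoprotein (oxLDL) at 20 µg/mL. Its members are the 6 libraries labelled with oxLDL, of 12 in the series: Pim1-/- oxLDL replicates 1 to 3 and WT oxLDL replicates 1 to 3. The other 6 libraries, 3 Pim1-/- and 3 WT, were labelled with PBS in place of oxLDL and are used here for the shared estimate of spread and for a side-by-side look at the same genotype difference. The labels give no strain, age or sex of the mice, do not say which part of Pim1 was removed, and leave unsaid whether replicates were separate animals or separate wells, so each p-value measures the spread between these libraries, which may be technical. The values are TPM, a transcript level corrected for length that is scaled to the same total in every library.

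Pim1 is a serine/threonine kinase made in response to cytokines that signal through JAK kinases and STAT transcription factors, and it has no regulatory subunit, so that its activity follows its amount. Pim2 and Pim3 are its close relatives. OxLDL is taken up by macrophages through scavenger receptors such as those encoded by Msr1, Cd36 and Marco, and this uptake is a standard model of foam cell formation. Macrophages exposed to oxLDL also turn on inflammatory cytokine genes through NF-kB and antioxidant genes through the transcription factor NRF2.

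The 6 libraries did not sort by genotype. Over 5973 genes with a mean of at least 10 TPM in these libraries, the smallest distance of any pair was between Pim1-/- oxLDL 1 and the library labelled WT oxLDL 2, with a median absolute difference of 0.106 on the log2(TPM + 1) scale. In that pair 97.7% of the genes lay within 0.5 of each other, and 40 genes differed by more than 1. The next closest pair, Pim1-/- oxLDL 2 and 3, had a median absolute difference of 0.179 with 89.9% of genes within 0.5. The library labelled WT oxLDL 2 differed from WT oxLDL 1 and WT oxLDL 3 by 0.504 and 0.840, more than it differed from any Pim1-/- library. The largest differences between Pim1-/- oxLDL 1 and the library labelled WT oxLDL 2 were mostly in rows of short RNAs, such as Mir7676-1, Snord82 and Snord55. Whether the 2 libraries share a source, or whether a label is wrong, was not tested, since TPM keep no read counts. Results are therefore given with all 6 libraries, without the library labelled WT oxLDL 2, and, for the counts and many of the named calls, without both of that pair. A library left out because of its values makes the remaining counts a description, not independent evidence.

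**Figure D1:**
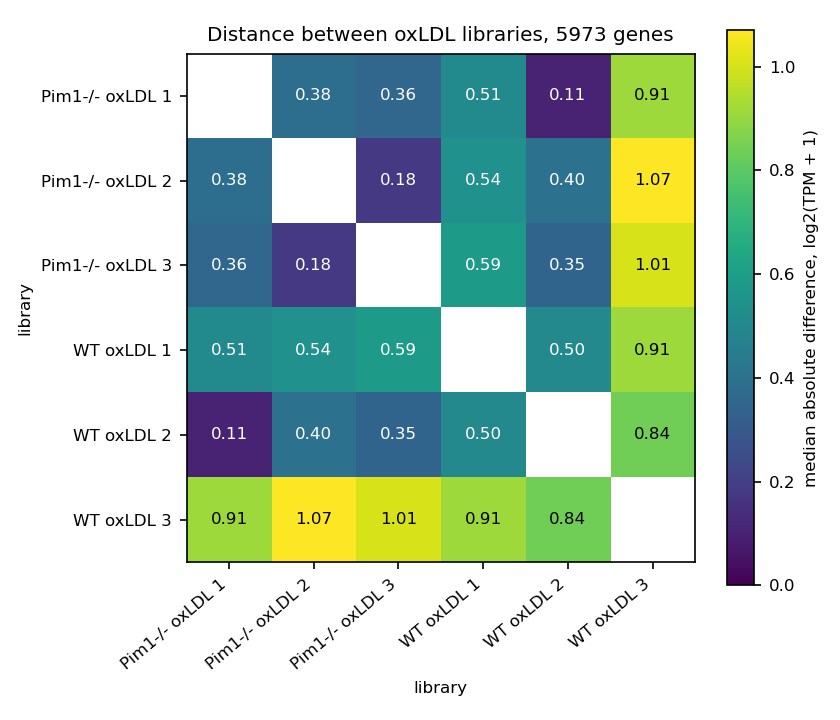
Median absolute difference on the log2(TPM + 1) scale between each pair of oxLDL libraries, over 5973 genes with a mean of at least 10 TPM; Pim1-/- libraries stand left of and above WT libraries, and the scale runs from dark (close) to bright (far). The darkest pair, at 0.11, is Pim1-/- oxLDL 1 with the library labelled WT oxLDL 2, and WT oxLDL 3 is the farthest from all others.

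All 6 libraries held the macrophage marker RNAs. Lyz2, which encodes lysozyme, stood at 8983, 11760 and 12362 TPM in Pim1-/- oxLDL and at 15956, 9257 and 11100 TPM in WT oxLDL. Csf1r, the receptor for macrophage colony-stimulating factor, stood at 119, 98.5 and 105 TPM in Pim1-/- oxLDL and at 123, 138 and 411 TPM in WT oxLDL. Among RNAs of other cells, the 20 mesothelial and fibroblast markers summed to 1589, 915 and 947 TPM in Pim1-/- oxLDL and to 612, 1533 and 882 TPM in WT oxLDL, and the 10 dendritic cell markers to 148, 62.6 and 59.1 TPM against 70.5, 139 and 53.4 TPM. In both lists Pim1-/- oxLDL 1 and the library labelled WT oxLDL 2 stood together above the other 4 libraries. The 15 T and NK cell markers summed to 320 to 365 TPM in Pim1-/- oxLDL and to 219 to 618 TPM in WT oxLDL, and the 12 B cell markers to 16.4 to 19.5 TPM against 5.27 to 15.1 TPM, with 1 of them listed at 0 in all 6. The part of such cells in the results below was not tested, and in bulk samples fewer cells of a type and less RNA per cell cannot be told apart.

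Pim1 RNA was lower in every library labelled Pim1-/- than in every library labelled WT, but the margin was narrow at one point. Pim1 (chromosome 17, 29490753 to 29496112, GRCm38/mm10) stood at 47.8, 13.6 and 12.3 TPM in Pim1-/- oxLDL and at 365, 56.0 and 114 TPM in WT oxLDL. The lowest WT value, 56.0 TPM, belonged to the library labelled WT oxLDL 2, and the highest Pim1-/- value, 47.8 TPM, to the library closest to it. The log2 difference, Pim1-/- minus WT on log2(TPM + 1), was -2.66 (SE 0.652), with a limma adjusted p of 0.321 over 12594 tested genes and an exact two-sided permutation p of 0.1, the smallest that 3 against 3 libraries allow. After median-of-ratios scaling, which divides each library by its median ratio to the geometric mean of all libraries, it was -2.44. Without the library labelled WT oxLDL 2 it was -3.28 with a limma adjusted p of 0.028, and with scaling as well the adjusted p was 0.0736. Without both close libraries it was -3.88 with a limma adjusted p of 0.0211. Since the labels do not say which exons were removed, RNA counted under Pim1 in the knockout cannot be read as intact transcript.

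The related kinases did not stand higher in the knockout. Pim2 stood at 2.16, 1.06 and 1.58 TPM in Pim1-/- oxLDL and at 3.93, 3.43 and 2.94 TPM in WT oxLDL. These groups did not overlap unscaled and overlapped after scaling, with a log2 difference of -0.79 unscaled (SE 0.508, limma adjusted p = 0.650). Pim3 stood at 64.6, 18.2 and 6.01 TPM in Pim1-/- oxLDL and at 54.8, 67.4 and 43.6 TPM in WT oxLDL, a difference of -1.42 (limma adjusted p = 0.539). For Pim3 the value of Pim1-/- oxLDL 1 lay inside the WT range and those of the other 2 knockout libraries below it.

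Across the genome 1 gene passed the test, and it stood higher in the knockout. With limma and Benjamini-Hochberg adjustment over 12594 genes, 1 gene was called, 0.00794% of those tested, with 1 higher (0.00794%) and 0 lower (0%), and the same numbers were obtained after median-of-ratios scaling. At an unadjusted p under 0.05 there were 560 genes higher (4.45%) and 807 lower (6.41%), and 805 (6.39%) and 660 (5.24%) after scaling. Groups that did not overlap were more frequent: all Pim1-/- values lay above all WT values for 866 genes (6.88%) and below them for 1635 genes (13.0%), and after scaling for 1417 (11.3%) and 1114 (8.85%). Counts of groups apart in the lists below are to be read against these shares. The median difference of all tested genes was -0.16 without scaling and 0.01 with it, so scaling moved the balance between the directions. Without scaling 8101 of the 12594 tested genes had a negative difference and 4466 a positive one, against which the counts of signs in the lists below are to be read. Differences below are unscaled and are to be read against this median.

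Leaving out the library labelled WT oxLDL 2 gave 317 called genes (2.52%), 178 higher (1.41%) and 139 lower (1.10%) in Pim1-/-. Calls in the lists below are to be read against these shares. For 177 of the 178 higher genes and for all 139 lower genes, the left-out library lay on the knockout side of both other WT libraries, and for 70 and 10 of them it reached the knockout range. With scaling and without that library 95 genes were called (0.754%), 42 higher (0.333%) and 53 lower (0.421%), of which 37 and 53 were among those of the unscaled fit. Leaving out Pim1-/- oxLDL 1 as well gave 180 called genes (1.43%), 58 higher (0.461%) and 122 lower (0.969%), and 56 and 86 of these were shared with the fit that left out only the WT library. Leaving out any 1 of the other 11 libraries in place of WT oxLDL 2 gave 1 to 11 calls. The 317 calls also rest on single libraries among the other 5: without WT oxLDL 2 and WT oxLDL 1 there were 4, without WT oxLDL 2 and Pim1-/- oxLDL 2 there were 3, and without WT oxLDL 2 and Pim1-/- oxLDL 3 there were 8.

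**Figure D2:**
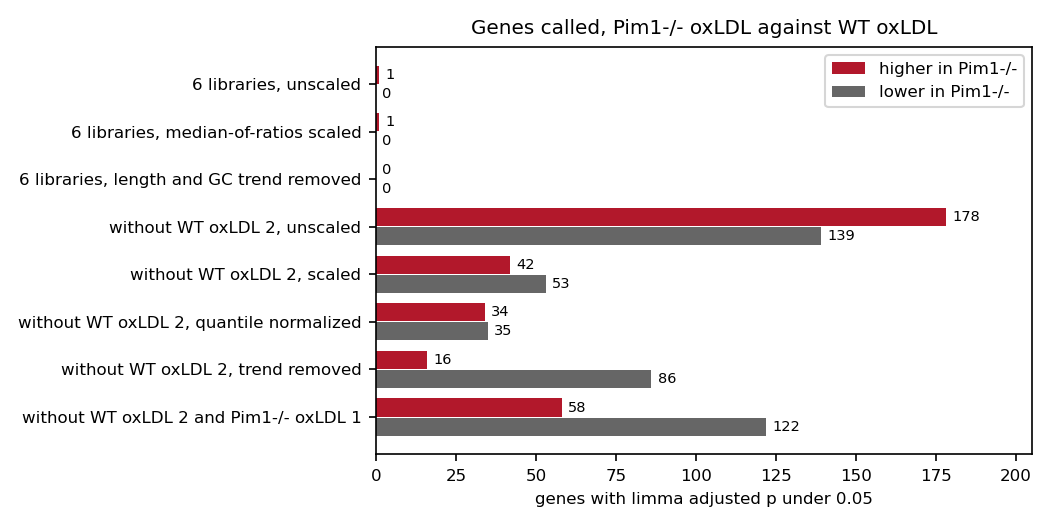
Number of genes called at a limma adjusted p under 0.05, higher (red, upper bar of each pair) or lower (grey) in Pim1-/- oxLDL than in WT oxLDL, for fits of different libraries and scalings. The fits with all 6 libraries hold 0 or 1 call in each direction, and the unscaled fit without the library labelled WT oxLDL 2 holds 178 and 139.

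The single called gene was Mir7678, a microRNA locus on chromosome 2 (164354313 to 164354383, minus strand, GRCm38.p6) that lies over an exon of Slpi on the same strand. Its 2 mature arms, credited to RefSeq, are printed to identify it, with the seed, bases 2 to 8, in capitals.
mmu-miR-7678-5p: uUACAAGGgcuggauaggaau
mmu-miR-7678-3p: uUUCCUUAcuuucucuuguagc
The row stood at 10.4, 9.25 and 13.9 TPM in the Pim1-/- oxLDL libraries and was listed at 0 in the WT oxLDL libraries. It was also listed at 0 in all 6 PBS libraries. The row thus met the filter of at least 1 TPM in at least 3 libraries only through the group where it stood high. The groups listed at 0 throughout had no spread, which lowers the shared estimate of spread. Its call is therefore a description, not support for a genotype difference. The difference on log2(TPM + 1) was 3.59 (SE 0.318, limma adjusted p = 0.000206), and no fold is given because the WT libraries were listed at 0. With the trend described below for transcript length and GC content removed, the difference was 3.22 and the call was lost (limma adjusted p = 0.357), and with WT oxLDL 2 left out as well it passed (limma adjusted p = 0.0383). A row of 71 bases in a table of poly(A) RNA gives 1 value for the locus and does not separate the arms or the hairpin from the host transcript, so its reads cannot be told apart from those of Slpi. Slpi, which encodes a secreted inhibitor of neutrophil proteases and was looked up because of this overlap, stood at 297, 316 and 358 TPM in Pim1-/- oxLDL and at 107, 280 and 22.0 TPM in WT oxLDL. The groups did not overlap, and its difference was 1.87 (limma adjusted p = 0.380).

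Among the other microRNA rows named by the rule, the 3 given here followed the pair of close libraries. Mir202 and Mir1249, also named, each had an exact two-sided permutation p of 0.1 in oxLDL, and their values are not given here. Mir7688 stood at 18.4, 53.9 and 24.1 TPM in Pim1-/- oxLDL and at 0, 16.7 and 0 TPM in WT oxLDL. Mir6922, which lies over an exon of Srebf1, stood at 12.2, 14.4 and 10.7 TPM in Pim1-/- oxLDL and at 0, 11.1 and 0 TPM in WT oxLDL. Mir5625, over an exon of Slc35f6, ran the other way, listed at 0 in Pim1-/- oxLDL and at 19.8, 0 and 26.5 TPM in WT oxLDL. In each of the 3 rows the library labelled WT oxLDL 2 held a value like those of the knockout or close to them.

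Among the genes with the smallest p on the lower side were regulators of inflammation and of the cytoskeleton. Tnfaip2 (chromosome 12), a gene induced by TNF, stood at 178, 77.2 and 67.4 TPM in Pim1-/- oxLDL and at 1387, 254 and 620 TPM in WT oxLDL. Its difference was -2.62 (SE 0.540, limma adjusted p = 0.321) with all libraries and -3.24 (limma adjusted p = 0.0156) without the library labelled WT oxLDL 2. Efhd2 (chromosome 4), a calcium-binding protein that binds actin, stood at 115, 43.1 and 32.9 TPM in Pim1-/- oxLDL and at 421, 164 and 420 TPM in WT oxLDL. The groups did not overlap for either gene, and in both the library labelled WT oxLDL 2 was the lowest of the WT libraries and Pim1-/- oxLDL 1 the highest of the knockouts. Bcl3, an IkB family member that acts in the nucleus with NF-kB subunits and is a target of STAT signalling, stood at 19.3, 5.94 and 5.95 TPM in Pim1-/- oxLDL and at 120, 33.5 and 58.1 TPM in WT oxLDL. Its difference was -2.66 (limma adjusted p = 0.321), and it passed without the library labelled WT oxLDL 2 (limma adjusted p = 0.0273) but not with scaling in addition (limma adjusted p = 0.0638).

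Several lower genes act in growth control and metabolism. Cdkn1c, an inhibitor of cyclin-dependent kinases, stood at 85.0, 10.7 and 5.93 TPM in Pim1-/- oxLDL and at 422, 97.5 and 173 TPM in WT oxLDL. Glud1, the mitochondrial glutamate dehydrogenase, stood at 11.0, 7.52 and 6.82 TPM in Pim1-/- oxLDL and at 101, 19.2 and 130 TPM in WT oxLDL. Both passed without the library labelled WT oxLDL 2, with limma adjusted p of 0.0437 and 0.00621, and neither with it. With scaling in addition Glud1 passed (limma adjusted p = 0.0101) and Cdkn1c did not (0.104). Uhmk1, a kinase that binds RNA-processing factors, Colgalt1, a collagen-modifying enzyme of the endoplasmic reticulum, Kif1bp, a kinesin-binding protein, and 1810026J23Rik, a name without a match in the annotation, behaved alike, with differences of -3.16, -2.61, -1.87 and -2.98. So did Sgpp1, a phosphatase of sphingosine 1-phosphate, and Ybx1, an RNA-binding protein, with differences of -2.70 and -2.73 in all 6 libraries, but Ybx1 did not pass with scaling in addition (limma adjusted p = 0.102) nor without both close libraries (0.0742).

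**Figure D3:**
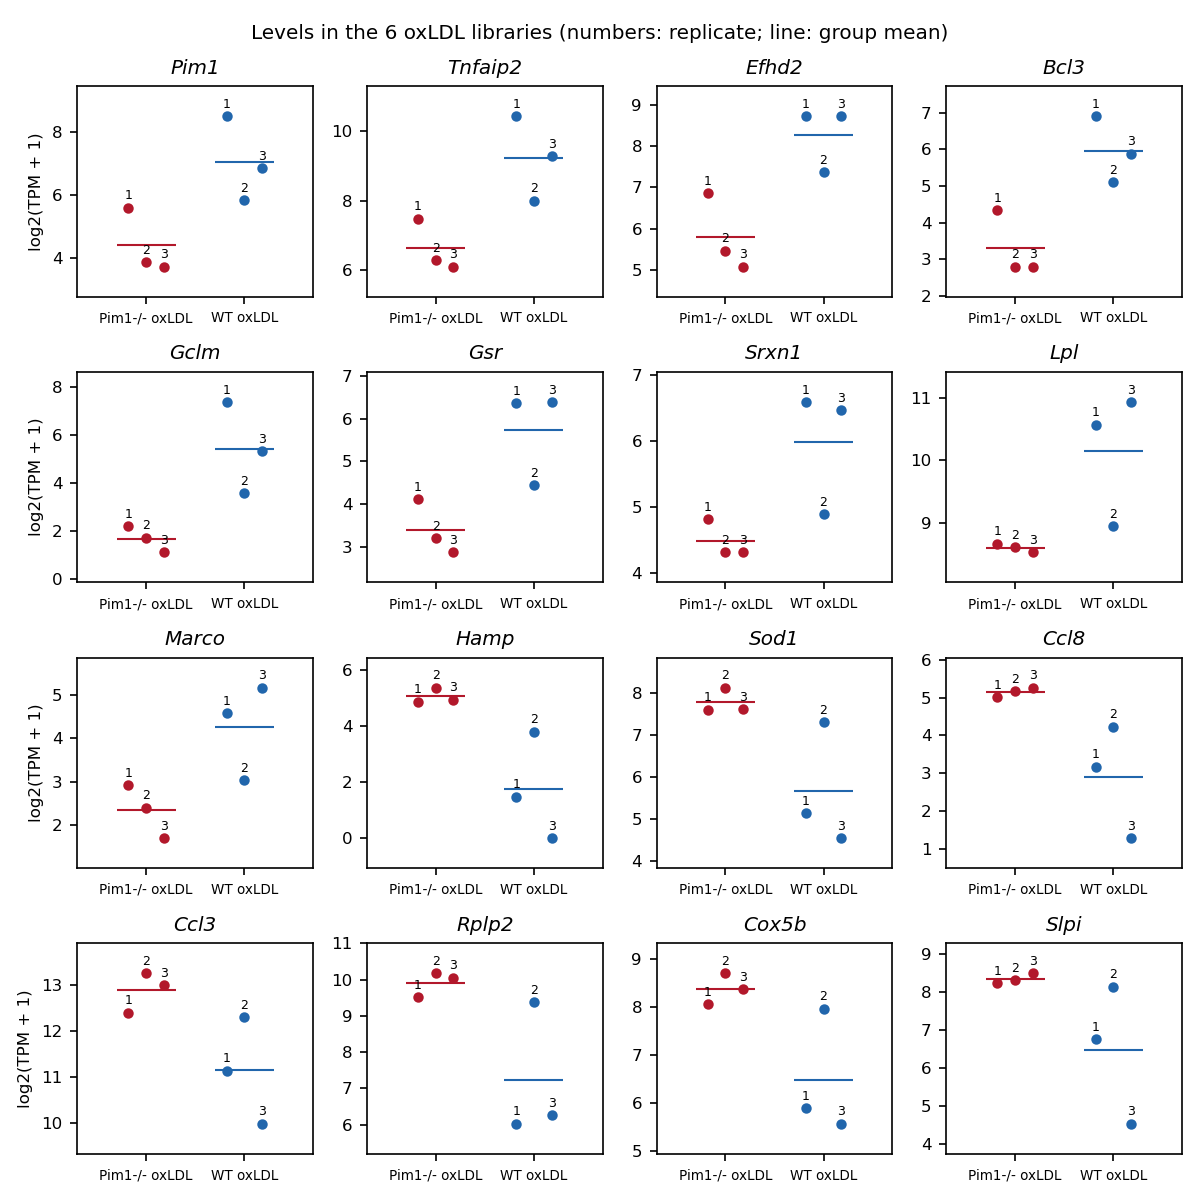
Levels as log2(TPM + 1) of 16 genes in the Pim1-/- oxLDL libraries (red, left) and the WT oxLDL libraries (blue, right); numbers are replicates and lines are group means. In each of the 16 panels the WT point nearest to the Pim1-/- points is replicate 2.

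The antioxidant genes under NRF2 showed a split within the list. Of 23 tested members, 0 were called with all libraries (2 higher and 5 lower at an unadjusted limma p under 0.05). Unscaled, 10 stood with all Pim1-/- values below all WT values against 2 above, as did 13.0% and 6.88% of all tested genes. After scaling 5 stood below and 5 above, as did 8.85% and 11.3% of all tested genes. Without the library labelled WT oxLDL 2, 4 passed lower, Gclm, Gsr, Srxn1 and Gclc, and 1 passed higher, Sod1. Gclm, Gsr, Srxn1 and Sod1 also passed with scaling in addition and without both close libraries, and Gclc in neither (limma adjusted p = 0.0567 and 0.0997). The median difference of the list was -0.52, against -0.16 for all tested genes, and after scaling -0.27 against 0.01. The list holds both enzymes whose genes are bound by NRF2 and general antioxidant enzymes.

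Gclm and Gclc encode the 2 subunits of glutamate-cysteine ligase, which makes the first step of glutathione synthesis. Gclm (chromosome 3) stood at 3.60, 2.28 and 1.14 TPM in Pim1-/- oxLDL and at 165, 10.9 and 38.6 TPM in WT oxLDL. Its difference was -3.75 (SE 0.775, limma adjusted p = 0.321), and -4.67 (limma adjusted p = 0.0156) without the library labelled WT oxLDL 2. Gclc, named for its partner after its values were seen, stood at 0.486, 0.732 and 0.987 TPM in Pim1-/- oxLDL and at 7.40, 1.18 and 5.22 TPM in WT oxLDL. Gsr, the reductase that restores glutathione, stood at 16.2, 8.19 and 6.28 TPM in Pim1-/- oxLDL and at 82.2, 20.8 and 83.7 TPM in WT oxLDL. Srxn1, which repairs oxidized peroxiredoxins, stood at 27.0, 19.0 and 18.9 TPM in Pim1-/- oxLDL and at 95.3, 28.7 and 87.2 TPM in WT oxLDL. Unscaled, the groups were apart in all 4 genes, and after scaling in all but Gclc. The WT value closest to the knockout was that of the library labelled WT oxLDL 2 each time.

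NRF2 binds antioxidant response elements, and the core letters TGACNNNGC were searched on both strands of the 250 bases before each RefSeq gene start (GRCm38.p6). They were found in 6 of the 18 list members with a promoter in the table (33.3%), against 14.1% of 9388 tested genes with one. The hit of Gclm lies 125 bases before the start, on the opposite strand, and is shown in the direction of the gene because Gclm had the most negative difference of the list, with the motif in capitals (chr3:122245413-122245441, plus strand).
Gclm promoter: gctcccgggcGCACCGTCAactctcacga
The other 5 hits belonged to Nfe2l2, Prdx1, Txnrd1, Sod1 and G6pdx, so both a lower and a higher member carried it. Gsr had no promoter in the table.

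Other members of the antioxidant list differed less or ran the other way. Hmox1, the heme oxygenase gene, stood at 574, 579 and 539 TPM in Pim1-/- oxLDL and at 1083, 609 and 1594 TPM in WT oxLDL, and Nfe2l2, which encodes NRF2 itself, at 114, 91.4 and 114 TPM and at 123, 122 and 308 TPM. Both were looked up after their values were seen, and neither passed with or without the library labelled WT oxLDL 2. Sod1, the cytosolic superoxide dismutase, stood at 193, 278 and 194 TPM in Pim1-/- oxLDL and at 34.4, 157 and 22.5 TPM in WT oxLDL. Its difference was 2.11 (SE 0.589, limma adjusted p = 0.360), and 2.93 (limma adjusted p = 0.0165) without the library labelled WT oxLDL 2. Gpx1, a glutathione peroxidase, stood at 493, 550 and 484 TPM in Pim1-/- oxLDL and at 153, 485 and 99.1 TPM in WT oxLDL, with the library labelled WT oxLDL 2 inside the knockout range. Fth1, the ferritin heavy chain, stood at 41569, 64703 and 53601 TPM in Pim1-/- oxLDL and at 29576, 39569 and 10487 TPM in WT oxLDL. Sod1, Gpx1 and Fth1 have annotated transcripts with median lengths of 641, 787 and 592 bases, while those of Gsr and Srxn1 have 2673 and 2812 bases and that of Gclm, the most negative member, has 1002 bases.

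On the higher side, secreted acute-phase and chemokine genes had small p-values. Hamp (chromosome 7), which encodes the iron-regulating hormone hepcidin, stood at 28.1, 40.3 and 29.6 TPM in Pim1-/- oxLDL and at 1.78, 12.9 and 0 TPM in WT oxLDL, and was listed at 0 in all 6 PBS libraries. Its difference was 3.30 (SE 0.673, limma adjusted p = 0.321), and 4.32 (limma adjusted p = 0.00206) without the library labelled WT oxLDL 2. Orm1, an acute-phase glycoprotein, stood at 42.8, 80.1 and 77.5 TPM in Pim1-/- oxLDL and at 8.76, 46.7 and 0.917 TPM in WT oxLDL, so that the library labelled WT oxLDL 2 exceeded 1 of the knockouts. Ccl8, a chemokine for monocytes, stood at 31.2, 35.2 and 37.5 TPM in Pim1-/- oxLDL and at 8.05, 17.8 and 1.44 TPM in WT oxLDL. Ccl8 passed without the library labelled WT oxLDL 2 (limma adjusted p = 0.0323), and not with scaling in addition (limma adjusted p = 0.0655) nor without both close libraries (limma adjusted p = 0.0579). Other genes with small p on this side act in mitochondria, protein secretion and transcription. They were Mrps36 and Timm8b, Sec11c of the signal peptidase, and Snapc5 of the complex that activates transcription of small nuclear RNA genes. Their differences were 2.23, 2.37, 1.88 and 2.21.

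Genes of the cytoplasmic ribosome stood higher in the knockout as a body. All 41 tested members of the list had a positive difference, with a median of 1.93 against -0.16 for all tested genes. The groups did not overlap for 28 of the 41, all higher, and for 39 after scaling, 0 were called with all libraries (36 higher at an unadjusted limma p under 0.05), and 22 were called higher without the library labelled WT oxLDL 2. That number was 2 with scaling in addition and 6 without both close libraries. Rplp2, a protein of the ribosomal stalk, stood at 733, 1154 and 1059 TPM in Pim1-/- oxLDL and at 63.9, 663 and 76.1 TPM in WT oxLDL. Rps28 of the small subunit stood at 640, 1409 and 879 TPM in Pim1-/- oxLDL and at 40.2, 611 and 124 TPM in WT oxLDL. Rpl37 of the large subunit stood at 112, 211 and 110 TPM in Pim1-/- oxLDL and at 4.17, 116 and 10.7 TPM in WT oxLDL. The pattern is of 4 high and 2 low libraries, WT oxLDL 1 and 3 being low. All 100 rows named as ribosomal proteins took 3.00%, 4.93% and 3.77% of TPM in Pim1-/- oxLDL and 0.672%, 2.90% and 0.670% in WT oxLDL. Ribosomal protein genes have many near-identical pseudogene copies in the mouse genome, so the share of reads assigned to each is uncertain.

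Many ribosomal protein mRNAs start with a run of pyrimidines that places their translation under control of mTOR signalling. A run of at least 9 C or T bases in the 22 bases from 10 before the RefSeq start was found in 11 of 29 list members with a promoter in the table (37.9%), against 6.76% of 9388 tested genes. Shown are 15 bases before to 15 from the start of 3 members that passed without the library labelled WT oxLDL 2, with the longest run in capitals, because they are examples of members with such a run (chr7:141447636-141447665, plus strand; chr11:114668565-114668594, plus strand; chr17:33955651-33955680, minus strand).
Rplp2 start: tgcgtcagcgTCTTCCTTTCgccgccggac
Rpl38 start: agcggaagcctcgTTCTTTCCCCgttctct
Rps18 start: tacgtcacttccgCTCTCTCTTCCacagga
Rps18 stood at 578, 1044 and 798 TPM in Pim1-/- oxLDL and at 65.8, 564 and 98.3 TPM in WT oxLDL, and Rpl38, chosen for its sequence, at 470, 930 and 504 TPM and at 43.3, 399 and 62.7 TPM.

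The nuclear genes for respiratory chain subunits stood on the same side as the ribosomal proteins. Of 30 tested members 25 had a positive difference, with a median of 1.39, the groups were apart for 10 (17 after scaling), all higher, and 7 passed higher without the library labelled WT oxLDL 2, against 0 with all libraries (18 higher at an unadjusted limma p under 0.05) and 0 with scaling in addition, and 1 passed without both close libraries. Cox5b, a subunit of cytochrome c oxidase, stood at 267, 416 and 331 TPM in Pim1-/- oxLDL and at 58.7, 249 and 46.5 TPM in WT oxLDL. Ndufa1 of complex I stood at 185, 369 and 324 TPM in Pim1-/- oxLDL and at 18.2, 188 and 39.6 TPM in WT oxLDL. The replication-dependent histone genes, whose mRNAs mostly lack a poly(A) tail, had a median difference of 1.59 over 12 tested members, 12 of them positive, and 3 passed higher without the library labelled WT oxLDL 2, against 0 with all libraries (5 higher at an unadjusted limma p under 0.05), 0 with scaling in addition and 0 without both close libraries. Hist1h2bc stood at 162, 219 and 385 TPM in Pim1-/- oxLDL and at 51.7, 162 and 26.9 TPM in WT oxLDL. Hist1h1e, a linker histone gene outside the list, stood at 145, 63.6 and 76.6 TPM in Pim1-/- oxLDL and at 3.45, 131 and 3.57 TPM in WT oxLDL. Hist1h4m, a histone H4 gene also outside the list and among the 10 genes with the smallest p on the higher side, stood at 7.24, 4.11 and 6.45 TPM in Pim1-/- oxLDL and at 0, 2.51 and 0 TPM in WT oxLDL. Its groups did not overlap, and without the library labelled WT oxLDL 2 it passed unscaled (limma adjusted p = 0.0251), scaled (0.0163), with the trend for length and GC removed (0.0326) and without Pim1-/- oxLDL 1 as well (0.0468).

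These groups have short transcripts, and the difference between genotypes followed transcript length across all genes. The median annotated transcript length was 769.5 bases for the ribosomal protein list, 648 bases for the respiratory chain list and 2019 bases for all tested genes. Over 12095 tested genes with a GENCODE length, which are not independent replicates, the difference had a Spearman's rho of -0.416 and a Pearson's r of -0.383 with log2 length. The median difference was 0.18 in the shortest of 10 equal bins (54 to 694 bases) and -0.50 in the longest (4675 bases and more). By library, the shortest bin lay at 0.12, 0.18 and 0.05 in Pim1-/- oxLDL and at -0.45, 0.14 and -0.24 in WT oxLDL, as the median deviation from the mean of the 6. The longest bin lay at 0.04, -0.40 and -0.40 in Pim1-/- oxLDL and at -0.01, 0.11 and 0.58 in WT oxLDL. The genotypes overlapped in both bins, with WT oxLDL 1 below Pim1-/- oxLDL 1 in the longest. The genes called higher without the library labelled WT oxLDL 2 had a median length of 641 bases and those called lower 2673 bases, and 41 of the 178 higher and 0 of the 139 lower were ribosomal protein rows. RNA quality and library preparation were not given per library, and their part in this relation was not tested.

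**Figure D4:**
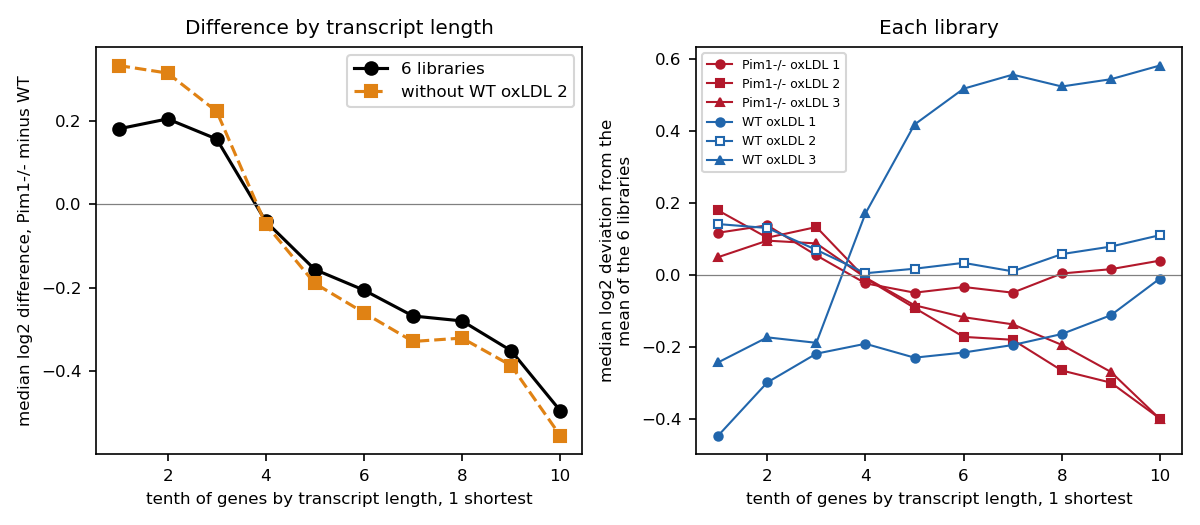
Left, the median log2 difference, Pim1-/- oxLDL minus WT oxLDL, in 10 bins of genes ordered by transcript length, with all 6 libraries (black) and without the library labelled WT oxLDL 2 (orange); right, each library's median deviation from the mean of the 6, with Pim1-/- in red and WT in blue. The difference runs from 0.18 in the shortest bin to -0.50 in the longest, and in the shortest bins WT oxLDL 1 and 3 lie below the other 4 libraries. In the longest bin WT oxLDL 3 lies highest, Pim1-/- oxLDL 2 and 3 lie lowest, and the other libraries lie between them.

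Removing from each library its trend with transcript length and GC content, an adjustment chosen after the data had been seen, left 0 limma calls (0%) of 12095 genes with all libraries, with 441 higher and 816 lower at an unadjusted p under 0.05, and 102 (0.843%) without the library labelled WT oxLDL 2, 16 higher (0.132%) and 86 lower (0.711%). Of the 178 genes called higher before, 13 remained, and of the 139 called lower, 64 remained. Tnfaip2, Efhd2, Gclm, Gsr, Srxn1 and Glud1 were among the lower genes that passed in this form, with limma adjusted p of 0.0237, 0.0177, 0.0171, 0.0166, 0.044 and 0.0166. Hamp and Sod1 were among the higher ones, with limma adjusted p of 0.02 and 0.0326. Of the ribosomal protein, respiratory chain and histone lists, 0 members passed in this form, but their median differences stayed positive. With the trend removed they were 1.61, 1.08 and 1.49 with all 6 libraries, against 1.93, 1.39 and 1.59 before. Without the library labelled WT oxLDL 2 they were 2.19, 1.50 and 2.09 with the trend removed, against 2.65, 1.95 and 2.55 before.

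Inflammatory genes did not move as a group. Of 36 tested NF-kB targets and cytokines, 18 had a positive and 18 a negative difference, with a median of -0.02. At an unadjusted limma p under 0.05, 7 were higher and 2 lower. Unscaled, 7 stood apart higher and 4 lower, and after scaling 9 and 4. Of all tested genes 6.88% stood apart higher and 13.0% lower unscaled, and 11.3% and 8.85% after scaling. The 7 apart higher unscaled were all chemokine genes: Cxcl1, Cxcl2, Ccl2, Ccl3, Ccl4, Ccl5 and Ccl7. Other chemokine genes of the list overlapped between groups, and Cxcl5 had a difference of -1.49. Tnf, Il1b and Il6, looked up as the best known members, passed neither with nor without the library labelled WT oxLDL 2. Tnf stood at 1934, 2106 and 2096 TPM in Pim1-/- oxLDL and at 2225, 2044 and 3226 TPM in WT oxLDL. Il1b stood at 2140, 2444 and 2152 TPM in Pim1-/- oxLDL and at 3996, 2169 and 3478 TPM in WT oxLDL, and Il6 at 415, 673 and 718 TPM and at 391, 417 and 215 TPM. Without the library labelled WT oxLDL 2, 4 members passed higher, Ccl3, Ccl4, Csf2 and Ccl17, and 1 passed lower, Il12b. With scaling in addition Csf2 and Ccl17 passed and the others did not, without both close libraries Ccl3, Csf2 and Ccl17 passed, and with the trend for length and GC removed 0 of the 36 passed limma's test.

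The chemokine gene Ccl3 stood at 5420, 9819 and 8234 TPM in Pim1-/- oxLDL and at 2268, 5095 and 1015 TPM in WT oxLDL, a difference of 1.74 (SE 0.542, limma adjusted p = 0.360). Ccl4, its neighbour in function, stood at 1692, 2284 and 2335 TPM in Pim1-/- oxLDL and at 624, 1600 and 264 TPM in WT oxLDL. Ccl17, a chemokine for T cells, stood at 3.93, 4.01 and 3.94 TPM in Pim1-/- oxLDL and at 0, 4.07 and 0 TPM in WT oxLDL, so the library labelled WT oxLDL 2 was the highest of the 6. Il12b, the shared subunit of interleukins 12 and 23, stood at 29.3, 35.8 and 34.0 TPM in Pim1-/- oxLDL and at 82.8, 37.9 and 160 TPM in WT oxLDL, a difference of -1.25 (limma adjusted p = 0.360). For all 4 genes the 2 WT libraries other than the one labelled WT oxLDL 2 stood clear of the knockout.

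Among 38 interferon response genes the median difference was -0.34 and 29 of 38 were negative, but 0 passed limma's test with or without the library labelled WT oxLDL 2 (1 lower at an unadjusted p under 0.05 with all libraries), and after scaling the median was -0.10. Of 20 genes of the JAK-STAT pathway, through which Pim1 is induced, 1 passed lower without that library, Bcl3, and the median was -0.31. Cish, a feedback inhibitor induced by STAT5, ran against this with 24.9, 21.1 and 19.3 TPM in Pim1-/- oxLDL and 4.10, 19.1 and 8.47 TPM in WT oxLDL. Without the library labelled WT oxLDL 2 it passed with scaling (limma adjusted p = 0.0381), but not unscaled (0.0896) nor with the trend for length and GC removed (0.0567). It did not pass without both close libraries (limma adjusted p = 0.184).

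Antigen presentation genes of MHC class II stood higher, in a list that also holds costimulation genes. Of the 12 tested members of this list 9 were positive, with a median of 0.43. The 3 negative members were Cd80, Cd40 and Cd274, which are not class II genes. Unscaled, 5 members stood apart higher and 1 lower, against 6.88% and 13.0% of all tested genes. Without the library labelled WT oxLDL 2, 1 passed, higher, against 1.41% of all tested genes. H2-Eb1, a class II beta chain, stood at 34.3, 40.4 and 35.6 TPM in Pim1-/- oxLDL and at 10.9, 28.8 and 6.07 TPM in WT oxLDL, a difference of 1.47 (limma adjusted p = 0.360), and 2.04 (limma adjusted p = 0.0366) without that library. The call was lost with scaling in addition (limma adjusted p = 0.0595), with the trend for length and GC removed (0.0667) and without both close libraries (0.0693). Cd74, the invariant chain, stood at 403, 412 and 461 TPM in Pim1-/- oxLDL and at 133, 379 and 83.9 TPM in WT oxLDL, and H2-Ab1 at 289, 262 and 255 TPM and at 117, 256 and 65.8 TPM. Cd274, the gene of the inhibitory ligand PD-L1, was the member that stood apart lower, though not after scaling. It stood at 1456, 1133 and 1368 TPM in Pim1-/- oxLDL and at 5018, 1525 and 2696 TPM in WT oxLDL. Dendritic cells and B cells also express class II genes, and their marker sums are given above.

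Genes for the uptake and export of lipoprotein lipid stood in both directions, more of them lower, as among all tested genes. Of 14 scavenger and lipoprotein receptor genes 10 had a negative difference, with a median of -0.60 (-0.36 after scaling). Unscaled, 5 stood apart lower and 2 higher, and after scaling 2 lower and 2 higher. Of all tested genes 13.0% stood apart lower and 6.88% higher unscaled, and 8.85% and 11.3% after scaling. Marco, a scavenger receptor with a collagen-like stalk, stood at 6.58, 4.30 and 2.27 TPM in Pim1-/- oxLDL and at 22.8, 7.26 and 34.8 TPM in WT oxLDL. Its difference was -1.92 (SE 0.548, limma adjusted p = 0.360), and -2.52 (limma adjusted p = 0.0293) without the library labelled WT oxLDL 2. Msr1, a class A scavenger receptor, stood at 256, 230 and 215 TPM in Pim1-/- oxLDL and at 385, 287 and 953 TPM in WT oxLDL, and Cd36, named outside the rule as a main oxLDL receptor, at 221, 232 and 251 TPM and at 367, 261 and 1134 TPM. Neither passed with or without the library labelled WT oxLDL 2. The groups did not overlap unscaled, and after scaling those of Msr1 stayed apart and those of Cd36 overlapped. Cd68, a lysosomal protein of the list, stood higher, at 2920, 3705 and 3839 TPM in Pim1-/- oxLDL and 1384, 2806 and 1195 TPM in WT oxLDL.

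Lpl, the lipase that releases fatty acids from lipoproteins, stood at 406, 391 and 369 TPM in Pim1-/- oxLDL and at 1522, 492 and 1961 TPM in WT oxLDL. Its difference was -1.55 (SE 0.512, limma adjusted p = 0.360), and it was the 1 of 26 PPAR and fatty acid genes that passed without the library labelled WT oxLDL 2 (limma adjusted p = 0.0318). It also passed with scaling in addition (limma adjusted p = 0.0393), but not with the trend for length and GC removed (0.0658) nor without both close libraries (0.0642). Of 17 LXR targets and efflux genes 15 were negative with a median of -0.37 (-0.18 after scaling). Unscaled, 6 stood apart lower and 1 higher, and after scaling 3 lower and 1 higher. Among all tested genes these shares were 13.0% and 6.88% unscaled, and 8.85% and 11.3% after scaling. With or without the library labelled WT oxLDL 2, 0 passed limma's test (3 lower at an unadjusted p under 0.05 with all libraries). Abca1, the main cholesterol exporter to apolipoprotein A-I, stood at 29.3, 18.8 and 16.4 TPM in Pim1-/- oxLDL and at 42.5, 34.5 and 109 TPM in WT oxLDL. The 25 cholesterol synthesis genes had a median of -0.08, with 2 apart higher and 0 lower unscaled, against 6.88% and 13.0% of all tested genes. Lamp1, a lysosomal membrane protein, stood at 120, 90.5 and 91.4 TPM in Pim1-/- oxLDL and at 1329, 194 and 339 TPM in WT oxLDL, and was the 1 of 30 lysosome and autophagy genes to pass without the library labelled WT oxLDL 2 (limma adjusted p = 0.0311). That call was lost with scaling in addition (limma adjusted p = 0.0816), with the trend for length and GC removed (0.0843) and without both close libraries (0.0550).

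**Figure D5:**
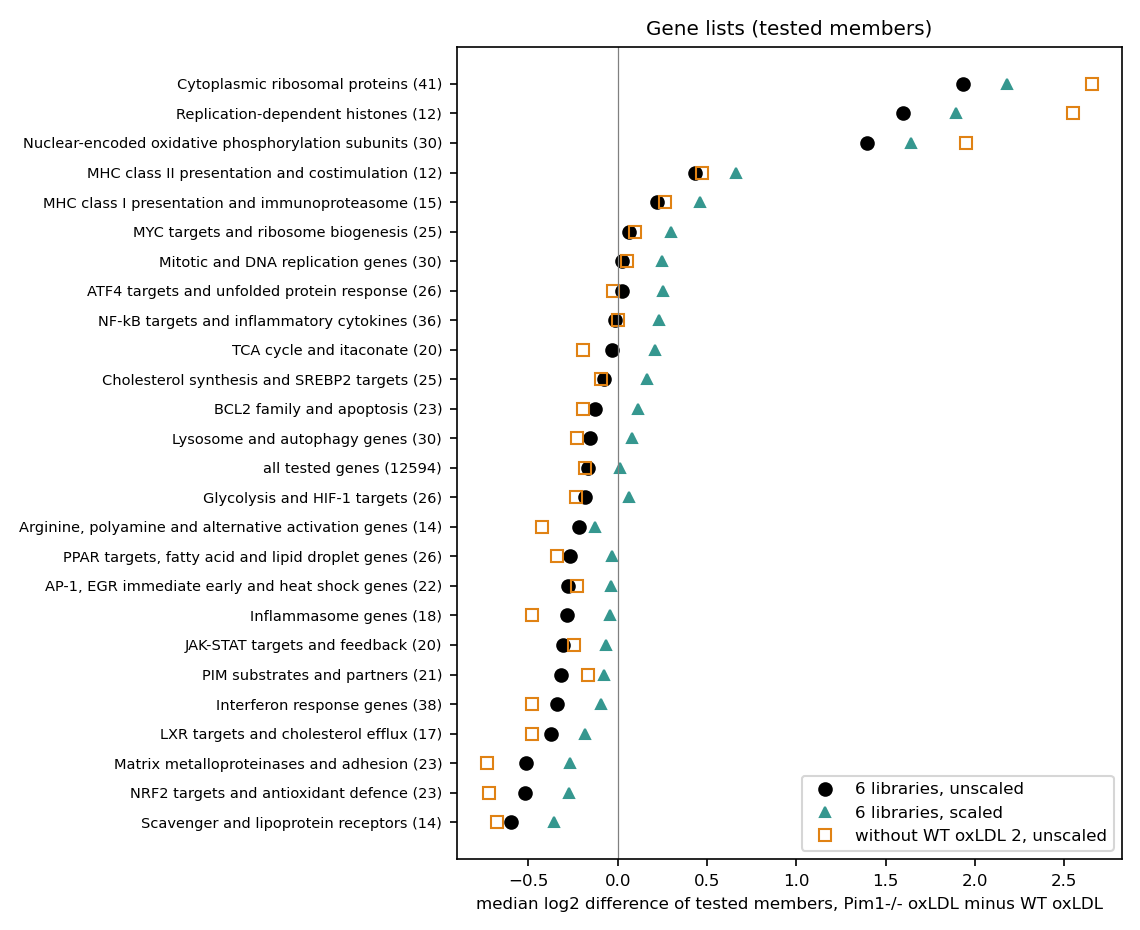
Median log2 difference, Pim1-/- oxLDL minus WT oxLDL, of the tested members of each gene list with at least 10 tested members and of all tested genes (number of genes in brackets), unscaled (black), scaled (green) and without the library labelled WT oxLDL 2 (orange squares). Ribosomal proteins, histones and respiratory chain subunits lie at 1.39 to 1.93 with all 6 libraries, while the other lists shown lie between -0.60 and 0.43.

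Macrophage identity genes stood in both directions. Of 15 macrophage markers 7 were positive and 8 negative. Unscaled, 2 stood apart higher and 5 lower, against 6.88% and 13.0% of all tested genes. Adgre1, the F4/80 antigen, stood at 143, 117 and 111 TPM in Pim1-/- oxLDL and at 255, 180 and 821 TPM in WT oxLDL. Itgam, the integrin chain CD11b, stood at 136, 78.7 and 90.6 TPM in Pim1-/- oxLDL and at 508, 146 and 235 TPM in WT oxLDL. Gata6, the transcription factor of large peritoneal macrophages, stood at 0.407, 0.839 and 0.253 TPM in Pim1-/- oxLDL and at 16.3, 1.12 and 1.38 TPM in WT oxLDL, so that 1 WT library was far above the other 5. Adgre1, Itgam and Gata6 did not overlap between groups, and none of the 3 passed with or without the library labelled WT oxLDL 2. The matrix and adhesion list had 19 of 23 negative with a median of -0.52 (-0.27 after scaling), and contained Mmp14, a membrane-bound metalloproteinase, at 842, 399 and 246 TPM in Pim1-/- oxLDL and 1713, 868 and 1087 TPM in WT oxLDL.

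The same genotype difference was seen in part in PBS, between libraries that share none with the oxLDL groups. In PBS 77 genes were called higher (0.611%) and 511 lower (4.06%) in Pim1-/-, and groups were apart for 834 genes higher (6.62%) and 2662 lower (21.1%). Of the 866 genes apart higher in oxLDL 257 were also apart higher in PBS, 29.7% of the oxLDL genes and 30.8% of the PBS genes, and of the 1635 apart lower 903 were, 55.2% and 33.9%. Of the 178 and 139 genes called without the library labelled WT oxLDL 2, 173 and 134 had the same direction in PBS, as had 9655 of all 12594 tested genes, and 8 and 68 were also called there. Over 12594 genes, which are not independent, the 2 differences had a Pearson's r of 0.650 (Spearman's rho = 0.634). The difference in PBS followed transcript length too (Spearman's rho = -0.382). With the trend for length and GC removed, the 2 differences had a Pearson's r of 0.583 (Spearman's rho = 0.58) over 12095 genes. Tnfaip2, Efhd2 and Gclm passed in PBS, at -2.27, -1.99 and -3.10 (limma adjusted p = 0.0336, 0.0365 and 0.0387). For the difference between the treatments itself 1 gene was called (0.00794%), Mir7678, a row that met the filter only through Pim1-/- oxLDL.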

How the data were processed

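RNA from peritoneal macrophages was sequenced as stranded poly(A) libraries, per the labels' protocols. The TPM values, 1 table of 24279 rows by 12 libraries, were deposited by the authors; Salmon, DESeq2 and mm10 are named in the submitters' processing notes, without versions, and the transcript annotation is not given in the sources used here. Since TPM keep no read counts, library depth is unknown. The 12594 genes with at least 1 TPM in at least 3 libraries were analysed as log2(TPM + 1) with limma 3.58.1 in R 4.3.3, fitting 4 group means over 12 libraries (8 residual degrees of freedom) with an intensity trend in the variance, and Benjamini-Hochberg adjustment over all tested genes at 0.05. A fold change on this scale understates the change of genes with low values. The shared estimate of spread includes the PBS groups. The code was tested on simulated data. Alternatives covered the pseudocount, the filter, scaling, each library left out, and, added after seeing the data, removal of the trend with length and GC and pairs of libraries left out. Median-of-ratios factors came from 9996 genes. Positions, lengths and GC came from GENCODE M21 by name (95.7% matched), and sequences from RefSeq tables on GRCm38.p6. The table holds 27 names altered to dates, which were kept as rows of their own. Named genes were the Pim kinases, the genes with the smallest p or largest change per direction and fit (groups apart or called, mean of at least 5 TPM), and the members with the smallest p per list; others are said to be chosen after their values were seen. The libraries compared, the lists (745 of 755 members in the table, 664 tested) and the tests were chosen with earlier results of these data known, so they are no independent evidence. Results for some genes are not reported here.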

Additional observations from a re-analysis of the deposited data

Results flagged for a closer look

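The difference between genotypes in oxLDL minus that in PBS was 3.59 for Mir7678 (limma adjusted p = 0.0153), which was listed at 0 in all PBS libraries and in all WT oxLDL libraries. The row met the filter only through Pim1-/- oxLDL, the group where it stood high, so this p-value is a description. Its position over an exon of Slpi means that the value cannot be told apart from Slpi reads.

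Marco stood in opposite directions in the 2 treatments. In oxLDL all Pim1-/- values lay below all WT values, and in PBS it stood at 2.21, 3.73 and 1.10 TPM in Pim1-/- and at 0.755, 0.284 and 0 TPM in WT. The difference in oxLDL minus that in PBS was -3.19 (SE 0.775) and did not pass (limma adjusted p = 0.986).

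Irg1, which encodes the enzyme that makes itaconate, did so as well. It stood at 2739, 2654 and 3227 TPM in Pim1-/- oxLDL and at 4067, 3251 and 10131 TPM in WT oxLDL. In PBS it stood at 31.2, 59.7 and 27.8 TPM in Pim1-/- and at 13.4, 8.97 and 19.7 TPM in WT. The difference in oxLDL minus that in PBS was -2.25 (SE 0.675) and did not pass (limma adjusted p = 0.986).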

How the results depend on the processing

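The count of 1 called gene was unchanged by pseudocounts of 0.1 and 0.5, by no filter or a filter of 5 TPM, by median-of-ratios scaling, quantile normalization, rescaling without Rn45s and Mir6236, and no intensity trend. It was 2 in a fit of the 6 oxLDL libraries only and 0 with the trend with length and GC removed. Leaving out 1 library gave 1 to 317 calls without scaling, the highest without WT oxLDL 2. Without WT oxLDL 2 the counts were 95 scaled, 69 quantile normalized and 102 with the trend removed, and with a further library left out 3 to 180, where a lone WT library is assumed to vary like the other groups.

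The Pim1 difference was -2.66, and with 1 library left out it ran between -3.28 and -1.94. It passed without WT oxLDL 2, at -3.28, and with the trend removed as well, at -3.49. Of 2126 values of single genes across the alternatives, 2004 kept their direction and side of the threshold, 118 crossed it upwards, 1 crossed it downwards (Mir7678 with the trend removed, 3.22) and 3 reversed. Of the upward crossings 52 came without WT oxLDL 2, and 24, 20 and 19 with scaling, quantile normalization or the trend removed in addition. The other 3 came without Pim1-/- oxLDL 1. Genes were named in part for passing without WT oxLDL 2, so these counts partly follow from that choice. The reversals were of Lyz2, at 0.14 after scaling, at 0.11 without WT oxLDL 1 and at 0.03 without Pim1-/- oxLDL 1, against a range of -0.28 to 0.11 with 1 library left out. The cause was not tested.

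Same-numbered libraries deviated together with correlations of 0.067, 0.118 and 0.165, and differently numbered ones had correlations of -0.103 to -0.002. The main fit did not pair the samples by replicate number, and these values do not settle whether the numbers mark pairs. With the replicate block, 1 gene was called and Pim1 was at -2.66. Depth is unknown, and values listed at 0 may be estimates that failed.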
